A study of Mus with 8 samples.

Results

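The 10 genes described here encode parts of the T cell receptor complex (Cd3d, Cd3e, Cd3g and Cd247), its coreceptors (Cd4, Cd8a and Cd8b1), the kinase that works beside them (Lck), and 2 genes of regulatory and activated T cells (Foxp3 and Il2ra). They were found as the non-control probes whose RefSeq accession belongs to one of these genes, which gave 17 of the 56605 probes and 10 of the 22911 named genes on the array. For each of the 10 genes at least 1 probe was well above background on 4 or more arrays, as was the case for 16068 genes in all. RNA came from 8 whole subcutaneous tumours grown from Pan02, a cell line of mouse pancreatic cancer, and taken 36 to 40 days after transplantation. The Mutant group is 4 tumours from hosts with the genotype Ext1 flox/flox; S100a4-Cre, and the Control group is 4 tumours from wild type hosts; both groups are labelled B6. The transplanted cells were the same in both groups. The product of Ext1 is a glycosyltransferase that builds heparan sulfate, a sugar chain of cell surfaces and matrix, and the title of the series describes a reduction of heparan sulfate in fibroblasts. S100a4, whose name the Cre line carries, is expressed by fibroblasts and also by macrophages and some lymphocytes, so the label alone does not say which host cells had recombined. The age of the hosts is not given in the sources used here.

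A T cell recognises antigen through a receptor whose antigen-binding chains do not signal themselves. They sit in the membrane with the CD3 gamma, delta and epsilon chains and the zeta chain, and the kinase LCK, carried by the coreceptors CD4 and CD8, phosphorylates the tails of those chains when antigen is bound. CD4 marks helper and regulatory T cells, CD8 marks cytotoxic T cells, and in a tumour the transcripts of these genes are read as a sign of infiltrating lymphocytes. The comparison asks whether these transcripts differed between tumours of Mutant hosts and tumours of Control hosts.

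Values are log2 signals minus the log2 of the same array's 75th percentile, so 0 is that percentile. Differences are Mutant minus Control on that scale, with the standard error and adjusted p of a limma fit over all 16068 genes. The level of one probe is not set against that of another, since probes differ in how brightly they hybridise. In whole tumours, fewer T cells and less RNA per T cell cannot be told apart. All arrays lay on 1 slide and came from 1 scan, in 2 rows that each held 2 Mutant and 2 Control tumours, and 63.2% to 68.7% of probes were well above background. The labels give the cell type as pancreatic cancer cell, but the RNA is from whole tumours. Of 5 genes of simple epithelium, a list chosen after the data were seen, Epcam was above background on no array. The other 4 were below 0 in Mutant minus Control, with a median of -0.57. Of these 4, 2 (Krt8 and Krt18) had an unadjusted limma p under 0.05, against a background of 2.91% of all 16068 genes, and 0 were called. The part of that shift in the results below was not tested. Krt18, a keratin of simple epithelia, stood at 7.03 ± 0.25 in Mutant tumours and 7.50 ± 0.34 in Control tumours (SD, n = 4 each). Ext1 itself read 2.93, 3.00, 3.41 and 3.24 in Mutant tumours 1 to 4, against 3.04, 3.60, 3.64 and 2.02 in Control tumours 1 to 4, which overlap (difference 0.07; two-sided exact permutation p = 0.943). The labels name no change to Ext1 in the transplanted cells, so this probe does not check the host genotype in whole-tumour RNA. S100a4 differed by 0.24 (exact permutation p = 0.486).

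None of the 10 genes passed a test of a difference between Mutant and Control tumours. At an adjusted p under 0.05 limma called 0 of 10, against a background of 0% of all 16068 genes. At an unadjusted p under 0.05 it called 0 of 10, against a background of 2.91%. The groups did not overlap for 0 of 10, against a background of 1.42%. The differences lay above 0 for 7 of the 10 genes and below 0 for 3, against 52.4% of all genes above 0. Their median was 0.19, against a median of 0.01 over all genes. The adjusted p was 1.00 for each of the 10 genes in limma. Of the 10 genes, 1, Cd8a, was at least 2-fold higher in Mutant tumours, against a background of 2.23% of all genes.

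**Figure D1:**
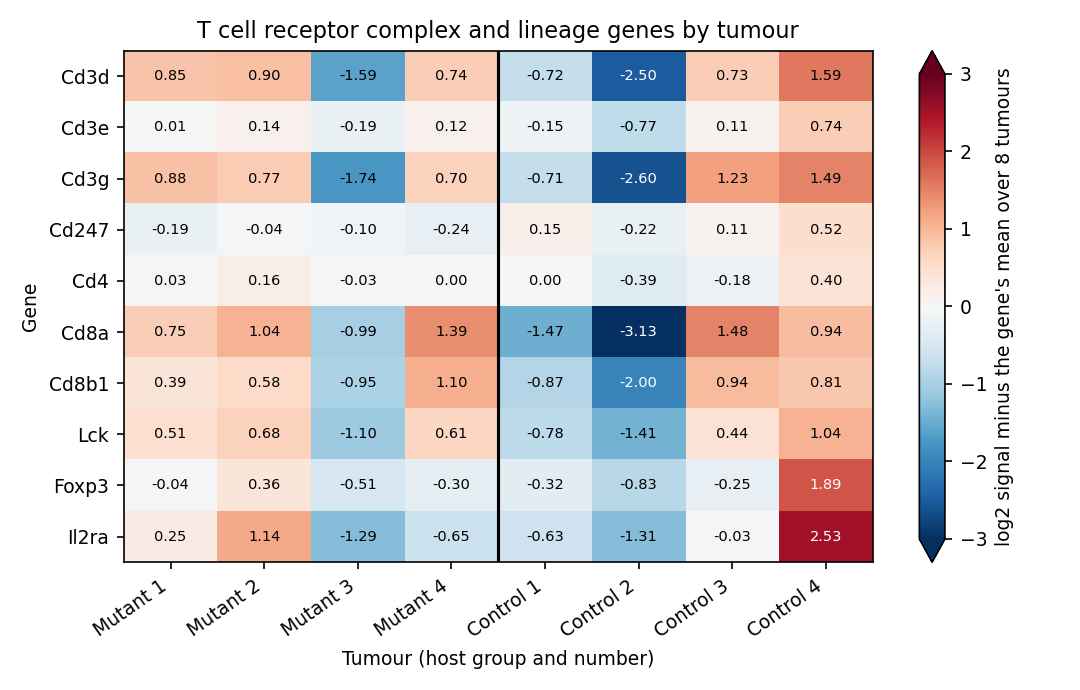
Log2 signal of each of the 10 genes minus that gene's mean over the 8 tumours, with the genes down the page and the tumours across it, Mutant tumours left of the line and Control tumours right of it. Control 4 is highest for 8 of the 10 genes and Control 2 lowest for 9, so the extremes of the range lie within the Control group.

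The tumours differed more within the host groups than between them. Control 4 had the highest value for 8 of the 10 genes, and Control 2 had the lowest for 9. Mutant 3 was among the lowest 3 tumours for 9 genes and Control 1 for 7. Mutant 2 and Control 4 were above the median of the 8 tumours for all 10 genes, while Mutant 3 and Control 2 were above it for none. The mean level of the 10 genes, each centred on its own mean over the tumours, was 0.34, 0.57, -0.85 and 0.35 in Mutant tumours 1 to 4, against -0.55, -1.51, 0.46 and 1.19 in Control tumours 1 to 4. Both groups thus held tumours with high and with low levels, and the Mutant values lay inside the Control range. The group means of this level were 0.10 ± 0.64 in Mutant tumours and -0.10 ± 1.18 in Control tumours (SD, n = 4 each). Over the 8 tumours the 10 genes spanned a median of 2.91 on the log2 scale from the lowest to the highest tumour, against a median of 0.80 and a 90th percentile of 2.77 over all genes. Of the 10 genes, 8 spanned at least 1.5 and 5 spanned at least 3. The SD was larger in Control than in Mutant tumours for 10 of 10 genes, as it was for 79.7% of all genes.

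Among the CD3 chains, Cd3d and Cd3g varied widely and in step, and neither passed the test between the groups. Cd3d, the delta chain, read 0.56, 0.61, -1.88 and 0.45 in Mutant tumours 1 to 4, against -1.01, -2.79, 0.44 and 1.29 in Control tumours 1 to 4. Mutant 3 stood below the other Mutant tumours, Control 2 was the lowest of all and Control 4 the highest, so the Control values enclosed the Mutant ones. The difference was 0.45 (SE 0.95, 95% interval -1.75 to 2.66; two-sided exact permutation p = 0.629), a 1.37-fold ratio. Cd3g, the gamma chain, had -1.06, -1.17, -3.68 and -1.25 in Mutant tumours, against -2.66, -4.54, -0.71 and -0.46 in Control tumours. Its tumours fell in nearly the same order, with Mutant 3, Control 1 and Control 2 low. It differed by 0.30 (SE 1.01, 95% interval -2.03 to 2.63; exact permutation p = 0.800). In the gene table of assembly GRCm38.p6, Cd3d has no coding gene between it and Cd3e or between it and Cd3g.

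Cd3e and Cd247 moved much less. Cd3e, the epsilon chain, read 0.64, 0.77, 0.44 and 0.75 in Mutant tumours 1 to 4, against 0.48, -0.14, 0.74 and 1.37 in Control tumours 1 to 4. The order was again one with Control 2 lowest and Control 4 highest, but the whole span was 1.52, where Cd3d and Cd3g each spanned 4.09. The difference was 0.03 (SE 0.29, 95% interval -0.65 to 0.72; exact permutation p = 0.943). Cd247, the zeta chain, which carries most of the signalling motifs of the complex, read 1.55, 1.70, 1.63 and 1.499 in Mutant tumours, against 1.88, 1.52, 1.85 and 2.26 in Control tumours. Of the 4 Control tumours, 3 lay above every Mutant tumour, and Control 2 lay among the Mutant ones. The difference of -0.28 (SE 0.16, 95% interval -0.65 to 0.09) had the smallest unadjusted limma p of the 10 genes, 0.117, and an exact permutation p of 0.114. It was the smallest in span too, at 0.76.

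**Figure D2:**
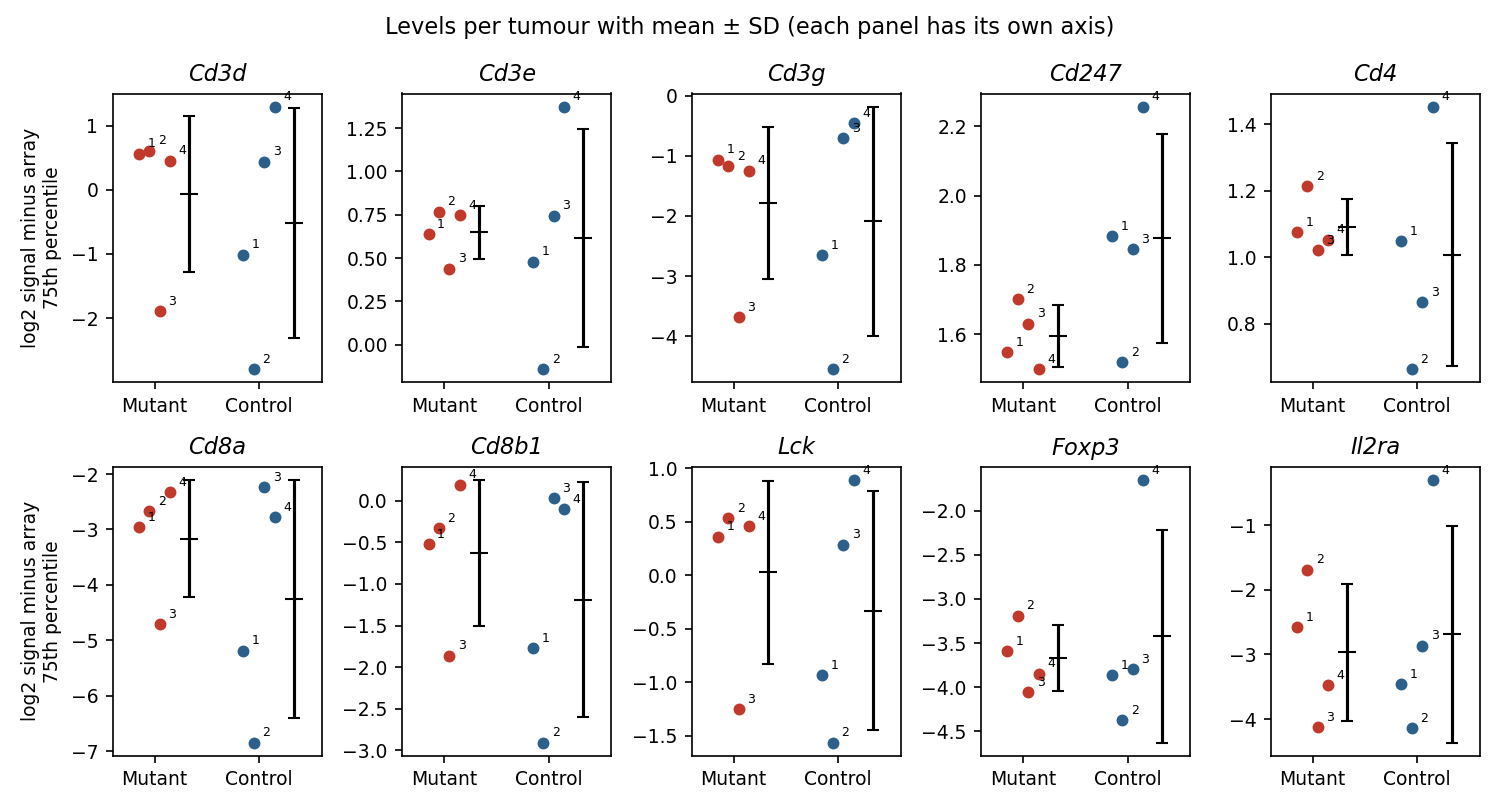
Log2 signal relative to the array's 75th percentile for each of the 10 genes, 1 panel a gene with its own axis, with Mutant tumours (red) left of Control tumours (blue), the tumour number beside each point, and bars for the mean ± SD (n = 4 each). The 2 groups overlap in every panel, and the Control bars are the longer ones throughout.

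None of the coreceptors passed the test between the hosts. Cd4, the coreceptor of helper and regulatory T cells, read 1.08, 1.21, 1.02 and 1.05 in Mutant tumours 1 to 4, against 1.05, 0.66, 0.87 and 1.45 in Control tumours 1 to 4. The Mutant tumours lay close together inside the Control range. The difference was 0.08 (SE 0.17, 95% interval -0.32 to 0.48; exact permutation p = 0.714). Cd8a, the alpha chain of the cytotoxic T cell coreceptor, read -2.96, -2.67, -4.70 and -2.33 in Mutant tumours, against -5.18, -6.84, -2.23 and -2.78 in Control tumours. It was well above background on 4 Mutant arrays and on 3 Control arrays, Control 2 being the exception, and Control 3 was highest. Its difference of 1.09 (SE 1.05, 95% interval -1.35 to 3.53; exact permutation p = 0.400), a 2.13-fold ratio, was the largest of the 10 genes. It was 0.23 without Control 2, 0.30 after normexp background correction and 2.14 with array weights. Cd8b1, the beta chain, read -0.52, -0.33, -1.86 and 0.19 in Mutant tumours, against -1.78, -2.91, 0.03 and -0.10 in Control tumours. The same 3 tumours, Mutant 3, Control 1 and Control 2, were low for both CD8 chains, whose genes have no coding gene between them in GRCm38.p6. Cd8b1 differed by 0.56 (SE 0.73, 95% interval -1.14 to 2.26; exact permutation p = 0.600), and by -0.01 without Control 2.

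The difference Cd8a minus Cd4 was taken within each tumour. It was -4.04, -3.89, -5.73 and -3.38 in Mutant tumours 1 to 4, against -6.23, -7.50, -3.10 and -4.23 in Control tumours 1 to 4. Single values of such a difference carry the brightness of 2 probes and have no meaning alone, but they can be compared between tumours. Control 3 was highest and Control 2 lowest, and the Mutant tumours lay between them. The groups differed by 1.01 (exact permutation p = 0.400, 0.657 adjusted over the 3 within-tumour differences tested). The difference was 0.26 without Control 2, 0.21 after normexp and 1.99 with array weights. The exact permutation p was 0.714, 0.657 and 0.0857 in that order, none of them adjusted.

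Lck, the kinase that starts receptor signalling, followed nearly the order of Cd3d over the tumours. It read 0.36, 0.53, -1.25 and 0.46 in Mutant tumours 1 to 4, against -0.93, -1.56, 0.29 and 0.89 in Control tumours 1 to 4. Mutant 3, Control 1 and Control 2 were the 3 tumours below 0, and the other 5 lay above it. The difference was 0.36 (SE 0.62, 95% interval -1.09 to 1.80; exact permutation p = 0.743).

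Foxp3 and Il2ra both had their highest value in Control 4, the tumour that was highest for 8 of the 10 genes. Foxp3, the transcription factor that defines regulatory T cells, read -3.59, -3.19, -4.05 and -3.85 in Mutant tumours 1 to 4, against -3.86, -4.37, -3.80 and -1.65 in Control tumours 1 to 4. Control 4 was well above every other tumour, the next being Mutant 2, and the remaining 7 tumours lay together. The difference was -0.25 (SE 0.56, 95% interval -1.54 to 1.05; exact permutation p = 0.886), and 0.34 without Control 4. Il2ra, the high-affinity chain of the IL-2 receptor, present on regulatory and newly activated T cells, read -2.58, -1.69, -4.12 and -3.48 in Mutant tumours, against -3.46, -4.13, -2.86 and -0.30 in Control tumours. Control 4 was again the highest and Mutant 2 came next. The difference was -0.28 (SE 0.87, 95% interval -2.30 to 1.75; exact permutation p = 0.83), and 0.52 without Control 4. Both genes were well above background on all 8 arrays.

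Set against Cd3e in the same tumour, neither gene passed the test of a difference between the hosts. Foxp3 minus Cd3e was -4.23, -3.96, -4.49 and -4.60 in Mutant tumours 1 to 4, against -4.34, -4.23, -4.54 and -3.03 in Control tumours 1 to 4, a difference of -0.28 (exact permutation p = 0.657, adjusted 0.657). It was 0.05 without Control 4. Il2ra minus Cd3e was -3.22, -2.46, -4.56 and -4.23 in Mutant tumours, against -3.94, -3.99, -3.61 and -1.68 in Control tumours, a difference of -0.31 (exact permutation p = 0.657, adjusted 0.657). It was 0.23 without Control 4 and 0.0037 without Mutant 3. Control 4 was the highest tumour in both.

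Within the slide rows the differences pointed in opposite directions. In row 1, which held tumours 1 and 2 of each group, 9 of the 10 genes were higher in the Mutant tumours, and in row 2, which held tumours 3 and 4, 0 of 10 were. Cd8a differed by 3.19 in row 1 and by -1.01 in row 2, Cd3d by 2.49 and -1.58, and Il2ra by 1.66 and -2.22. Cd247 was lower in the Mutant tumours in both rows, with differences of -0.08 and -0.49. The mean level of the 10 genes differed by 1.49 in row 1 and by -1.08 in row 2. A limma fit of group by row over all genes, chosen after these values were seen, called the change between rows for 0 of the 10 genes at an adjusted p under 0.05, against a background of 0%, and for 6 of 10 at an unadjusted p under 0.05, against a background of 10.3%. The row 1 difference exceeded the row 2 difference by 4.21 for Cd8a (SE 1.24, adjusted p = 0.397, limma) and by 4.36 for Cd3g (SE 1.29, adjusted p = 0.400, limma). Each row holds 2 tumours of each group, and row 1 holds Control 2 while row 2 holds Control 4. Control 2 was lowest for 9 of the 10 genes and Control 4 highest for 8. The 6 genes are therefore not independent of each other, and their count is not a test of a row effect.

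**Figure D3:**
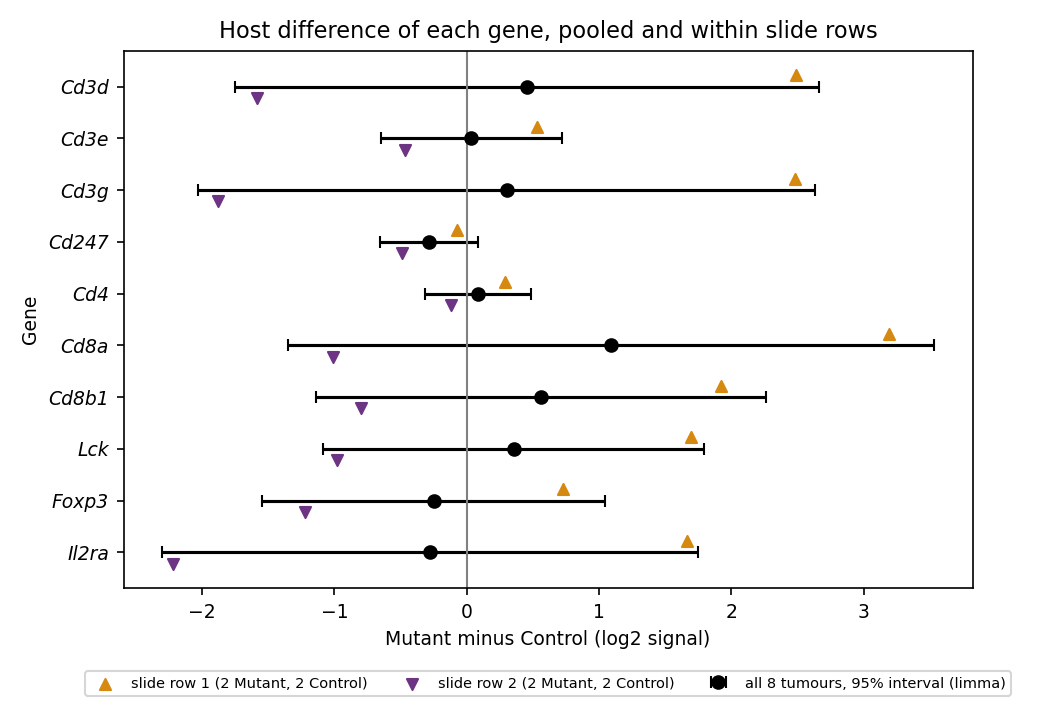
Mutant minus Control difference in log2 signal for each gene, with the black point and bar for all 8 tumours and the 95% interval of the limma fit, and triangles for the difference within each slide row (2 Mutant and 2 Control tumours a row). Every 95% interval includes 0, and the row 1 and row 2 differences lie on opposite sides of 0 for every gene except Cd247.

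Single tumours set the direction for most of the genes. Without Control 2, 1 of the 10 genes remained above 0 and the median difference was -0.26. Without Control 4, 9 of the 10 were above 0 and the median was 0.64. Cd3d differed by -0.31 without Control 2 and by 1.06 without Mutant 3, and Lck by -0.06 without Control 2 and by 0.78 without Mutant 3. Only Cd247 and Cd8a, of the 10 genes, kept their direction whichever single tumour was left out, between -0.40 and -0.15 for Cd247 and between 0.23 and 1.77 for Cd8a.

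For 6 of the 10 genes a further probe passed the filter, and these probes did not all vary alike. The 2 Cd3d probes followed each other closely, with spans of 4.09 and 4.57. The dimmer Cd3e probe spanned 1.06 and read -2.78, -2.90, -3.50 and -2.77 in Mutant tumours 1 to 4, against -3.57, -3.82, -2.94 and -2.75 in Control tumours 1 to 4, so that Mutant 3, Control 1 and Control 2 were low on it. Both Cd3e probes therefore varied less than those of Cd3d. A second Cd247 probe, designed on another RefSeq transcript, read -4.91, -4.45, -6.44 and -5.64 in Mutant tumours, against -5.48, -5.88, -4.64 and -4.49 in Control tumours. It was well above background on 2 Mutant and 2 Control arrays, spanned 1.99 where the brighter one spanned 0.76, and had Mutant 2 highest and Mutant 3 lowest. The remaining Cd247 probe was above background on 0 arrays. The dimmer Cd4 probe, above background on 3 Mutant and 2 Control arrays, spanned 1.46, with Control 3 highest. The dimmer Cd8a probe differed between the groups by 0.35, against 1.09 for the brighter, and the dimmer Lck probe by 0.17, against 0.36. Within-tumour differences taken on the dimmer probes were 0.17 for Cd8a minus Cd4, -0.53 for Foxp3 minus Cd3e and -0.56 for Il2ra minus Cd3e. What makes the brighter Cd3e, Cd247 and Cd4 probes vary less than the probes of Cd3d, Cd3g and Lck was not tested. Which transcripts they hybridise to was not examined. The 3 within-tumour differences as first given use the brighter Cd4 or Cd3e probe, so they read as differences from that probe and not from the amount of helper T cells or of receptor complex.

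**Figure D4:**
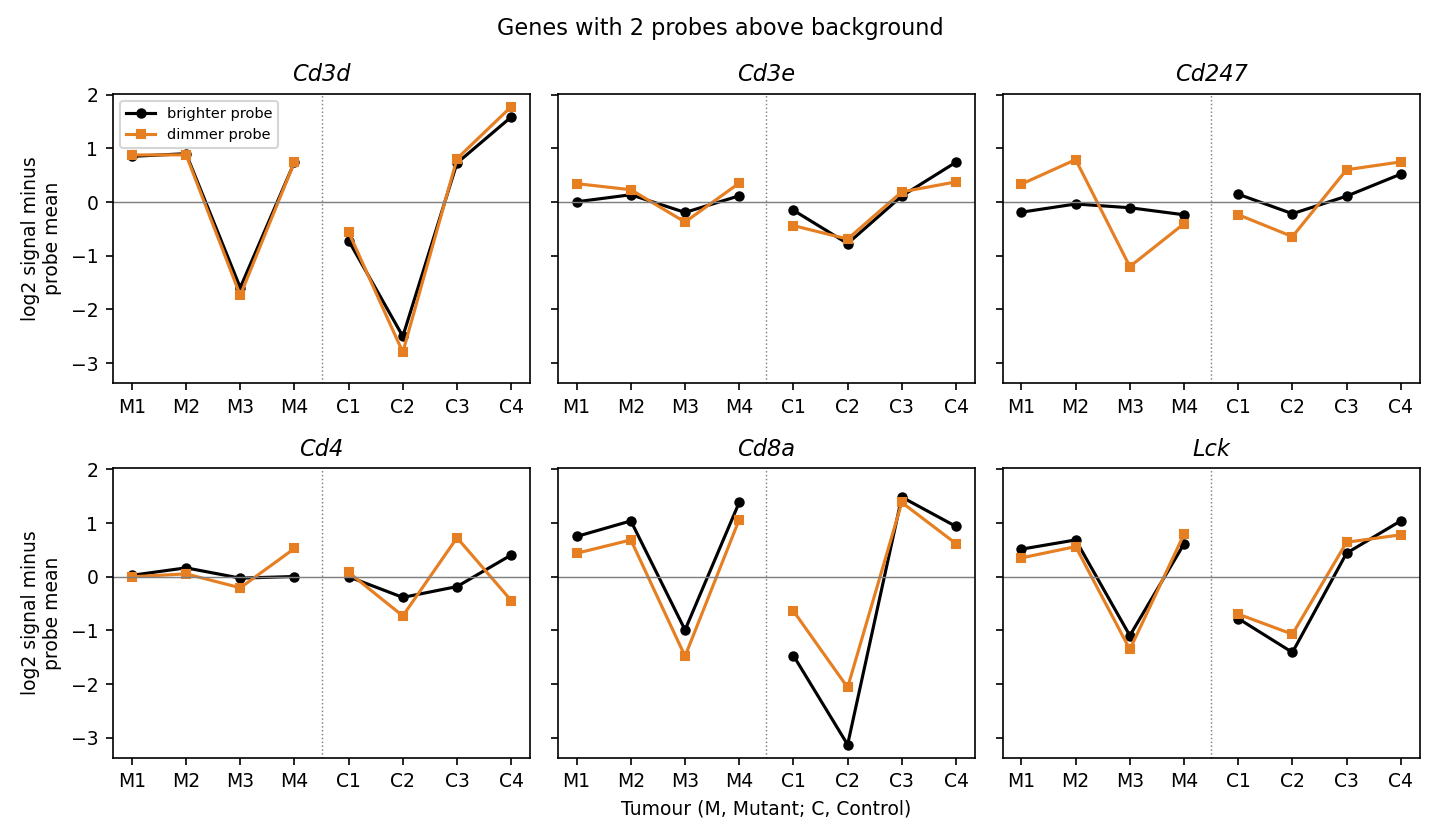
Log2 signal minus the probe's mean over the 8 tumours for the 6 genes with more than 1 probe above background, brighter probe in black and dimmer probe in orange, Mutant tumours (M) left of Control tumours (C). The paired probes overlie each other for Cd3d and run close for Cd8a and Lck, while for Cd247 and Cd4 they take different courses.

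The mean level of genes of receptor-proximal signalling moved with that of the 10 genes from tumour to tumour, though not every gene of the list did. Of 24 genes of receptor-proximal signalling, 23 were measured. Against a background of 52.4% of all genes above 0, here and for the lists below, 19 of them were above 0 and 4 below. Their median difference was 0.26, and 0 were called. Their mean centred level was 0.49, 0.53, -0.85 and 0.38 in Mutant tumours 1 to 4, against -0.60, -1.15, 0.07 and 1.13 in Control tumours 1 to 4. This is the same order of extremes as for the 10 genes, with Control 4 highest and Control 2 lowest, and the median was -0.03 without Control 2 and 0.80 without Control 4. Among the members with the smallest p were Ubash3a, a phosphatase that restrains receptor signalling (-0.45), and Lcp2, the adaptor SLP-76 (0.23). Ubash3a did not follow the list's mean, with -3.78 in Control 1 and its lowest value in Mutant 4 (-4.79).

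Lineage factors gave no call. All 14 were measured, 10 above 0 and 4 below, with a median of 0.28, or 0.04 without Control 2. Tcf7, the factor TCF-1 of naive and memory T cells, differed by 0.31, and Ikzf3, the factor Aiolos, by -0.19.

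Genes that accompany Foxp3 in regulatory T cells had 9 of 12 members measured, 4 above 0 and 5 below, with a median of -0.02 and 0 called. The median was -0.32 without Control 2 and 0.57 without Control 4. Ctla4, Il10 and Gpr83 missed the filter on dim probes. Itgae, an integrin chain of tissue-resident T cells and some dendritic cells, differed by 0.86 (SE 0.66), and the costimulatory receptors Tnfrsf9 and Tnfrsf4 by -0.45 and -0.20. The list's mean level was 0.27, 0.35, -0.55 and 0.00 in Mutant tumours 1 to 4, against -0.50, -0.77, -0.05 and 1.23 in Control tumours 1 to 4. Control 4 was the highest, as for Foxp3 and Il2ra.

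In the IL-2 and IL-7 pathway all 13 genes were measured, 7 above 0 and 6 below, with a median of 0.06, or -0.20 without Control 2 and 0.22 without Control 4. It held both genes of the 5 pathway lists with an unadjusted limma p under 0.05, 2 of 69 measured genes or 2.90%, against a background of 2.91%, and neither passed the adjusted threshold. Il7, a survival cytokine of T cells made mainly by stromal cells, read -3.88, -3.30, -5.05 and -4.86 in Mutant tumours 1 to 4, against -6.14, -5.68, -4.87 and -6.05 in Control tumours 1 to 4. Mutant tumours were the higher except that Control 3 exceeded Mutant 3, and the probe was well above background on 4 Mutant and 2 Control arrays. The difference was 1.41 (SE 0.45, unadjusted p = 0.014, adjusted p = 1.00, limma). The 4 Mutant arrays alone met the filter on dim probes, and Control 1 and Control 4 lay near background. Its size and p are therefore not read as a host difference. Jak3, the kinase on the shared receptor chain of these cytokines, read -0.43, -0.55, -0.53 and -0.68 in Mutant tumours, against -0.74, -0.71, -0.87 and -0.83 in Control tumours. Its groups did not overlap, as was so for 1.42% of all genes, and it differed by 0.24 (SE 0.10, unadjusted p = 0.042, adjusted p = 1.00, limma). Stat5a, the factor the pathway activates, differed by -0.30. Of homing and memory genes, 10 of 11 were measured (Cd27 missed the filter), 9 above 0 and 1 below, with a median of 0.22, or 0.09 without Mutant 1 and 0.47 without Control 4. Cd69, an early activation marker, differed by 0.92, and S1pr1, the receptor for exit from tissue, by -0.27.

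Markers of other cells varied with the T cell genes across the tumours, and their part in the levels above was not tested. NK cell markers were measured for 6 of 10 genes, with Ncr1, Klrb1c, Klri2 and Klrb1f missing the filter, and had a mean level of 0.32, 0.88, -0.98 and 0.47 in Mutant tumours 1 to 4, against -0.64, -1.51, 0.22 and 1.23 in Control tumours 1 to 4. Control 4 and Control 2 were the extremes, as for the T cell genes. Their summed signal, in units of each array's 75th percentile, ranged over 5.92 to 7.40 in Mutant tumours and 5.13 to 7.63 in Control tumours. Of this sum 74.8% to 94.8% came from the Cd244a probe, named for that after its values were seen, and without it the sum was 0.33 to 1.34 in Mutant tumours and 0.27 to 1.79 in Control tumours. Of the 6 measured, 5 were above 0, with a median of 0.41 that was -0.10 without Control 2 and 1.09 without Control 4. The median was 0.04 after normexp and 0.16 with the filter on all 8 arrays. Klra8 differed by 0.77, Eomes, which cytotoxic T cells express too, by -0.11 and Klre1 by 0.56. Klra8 and Klre1 were each well above background on 3 Mutant and 2 Control arrays. Dendritic cell markers (8 of 9 measured, Xcr1 above background on no array, median 0.01, or 0.82 without Control 4) read 0.72, 0.71, -1.09 and 0.08 in Mutant tumours, against -0.03, -1.27, -0.60 and 1.48 in Control tumours. Their summed signal was 176.1 to 199.0 in Mutant tumours and 168.4 to 215.8 in Control tumours, of which 94.9% to 98.8% came from the Siglech probe, also named after its values were seen. Without Siglech the sum was 2.46 to 6.27 in Mutant tumours and 2.72 to 10.73 in Control tumours. Of the 8 dendritic cell markers measured, 4 were above 0 and 4 below. Itgae, Clec9a and Flt3, which had the smallest p of the list, differed by 0.86, 1.12 and 0.61. Clec9a was well above background on 3 Mutant and 3 Control arrays.

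B and plasma cell markers were measured for 7 of 10 genes, with Ms4a1 and Cd79a missing the filter and Blk above background on no array. Their level was 0.00, 0.50, -1.24 and 0.79 in Mutant tumours 1 to 4, against -0.35, -0.89, 0.56 and 0.62 in Control tumours 1 to 4, with Mutant 3 lowest. The summed signal ranged over 1.62 to 10.4 in Mutant tumours and 1.77 to 6.49 in Control tumours. Of this sum 3.86% to 79.8% came from the probe of Jchain, the joining chain of secreted antibodies. Without Jchain the sum was 1.56 to 2.23 in Mutant tumours and 1.59 to 2.03 in Control tumours. Cd22, Fcrla and Jchain differed by 0.16, 0.42 and -0.47. Lymph node stroma, which a subcutaneous tumour could include, had 3 of 7 markers measured. Cxcl13, a chemokine of B cell follicles, read -1.50, -1.17, -6.02 and -7.79 in Mutant tumours, against -7.30, -5.31, -4.66 and -0.12 in Control tumours. It was high in Mutant 1, Mutant 2 and Control 4 and low in the other 5. On their brightest probes Cr2 and Glycam1 differed by 0.34 and -0.21, and Madcam1 was above background on no array. A second Glycam1 probe was above background in Control 4 only (-5.08). A second Cr2 probe was above background on no array, and a further Cr2 probe differed by -0.17. The list's summed signal was 0.33 to 0.79 in Mutant tumours and 0.34 to 1.37 in Control tumours. Ccl19, a T zone chemokine named after its values were seen, was above background in Mutant 2 (-2.56) and Control 4 (-0.25) only. Ccl21a and Fcer2a of the same list were also named after their values were seen. Ccl21a was above background in Mutant 2, Control 2 and Control 4 only, and Fcer2a in Mutant 1 and Mutant 2 only.

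Macrophage markers (9 of 9 measured, 7 above 0, median 0.10, or -0.08 without Mutant 1 and 0.31 without Mutant 3) read 0.43, 0.20, -0.53 and 0.11 in Mutant tumours 1 to 4, against -0.17, -0.21, -0.36 and 0.53 in Control tumours 1 to 4. Their summed signal was 104.2 to 198.2 in Mutant tumours and 115.7 to 210.2 in Control tumours, and Cd14, Mertk and Fcgr1 differed by 0.26, 0.30 and 0.41. Fibroblast markers (8 of 8 measured, 5 above 0, median 0.10, or -0.34 without Control 3 and 0.88 without Control 4) read 0.46, 0.93, -0.997 and 0.03 in Mutant tumours, against -0.57, -0.17, -1.44 and 1.76 in Control tumours. Their summed signal was 169.3 to 679.8 in Mutant tumours and 83.6 to 1201 in Control tumours, and Pdgfrb, Dpt and Pdgfra differed by 0.22, 1.08 and -0.23. Control 4 was the highest tumour for both lists, and Control 3, which was high for the T cell genes, was low for both. Skeletal muscle markers took another course. All 8 were above 0 with a median of 3.09. Of these, 6 had an unadjusted limma p under 0.05, against a background of 2.91% of all genes, and 0 were called after adjustment. Their level was 2.23, 3.03, -0.80 and 1.81 in Mutant tumours, against -0.47, 0.42, -2.33 and -3.90 in Control tumours. Mutant 1, Mutant 2 and Mutant 4, which held more muscle transcript, were also the Mutant tumours with the higher T cell genes, while Control 4 and Control 3, highest for T cell genes among the Control tumours, held the least. Acta1, Myh4 and Tcap, all parts of the contractile apparatus, differed by 2.05, 3.99 and 2.86, and the summed signal was 11.7 to 99.9 in Mutant tumours and 1.57 to 24.5 in Control tumours.

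**Figure D5:**
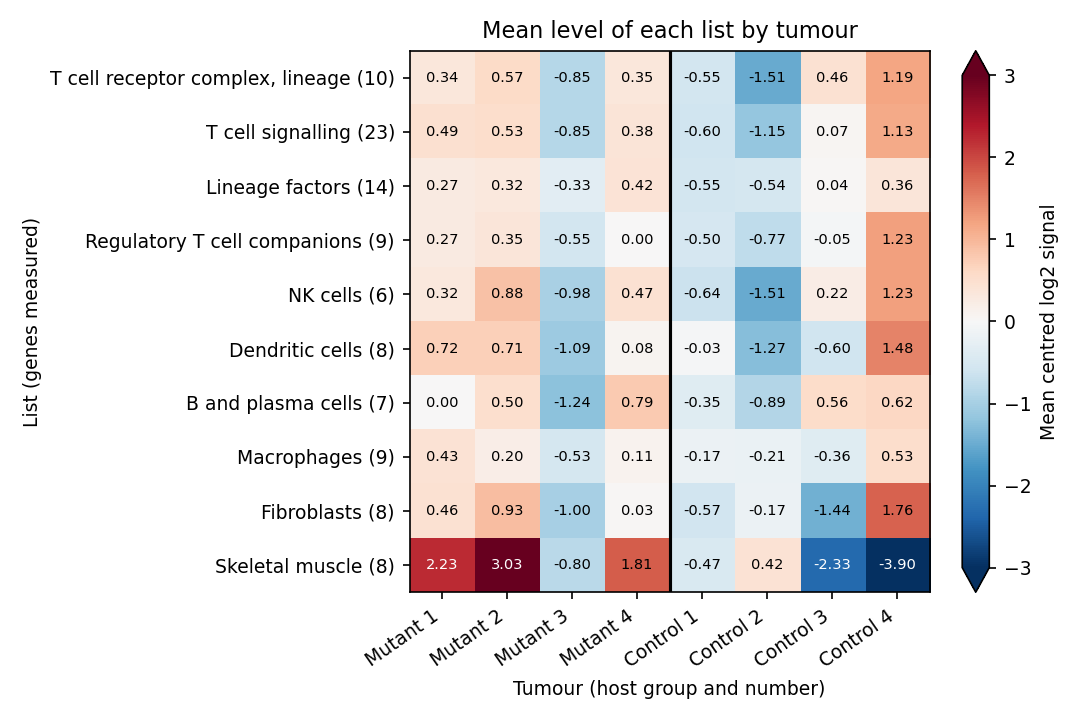
Mean centred log2 signal of the 10 T cell genes and of 9 other gene lists (number of measured genes in brackets) by tumour, Mutant tumours left of the line and Control tumours right of it; colours saturate at ±3. Control 4 is highest for the T cell, signalling, regulatory companion, NK, dendritic, macrophage and fibroblast lists, and the muscle list is highest in Mutant 2 and lowest in Control 4.

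Outside the 10 genes, the 6 whose course over the 8 tumours was most like their mean level were Zap70 (Pearson r = 0.995), the kinase that binds the phosphorylated receptor chains, Klrb1 (r = 0.992), Ptprcap (r = 0.990), Bspry (r = 0.988), Cd74 (r = 0.986), the invariant chain of antigen presentation, and Klrd1 (r = 0.986), the NK receptor chain CD94. These correlations describe 8 tumours and were picked as the highest among all other measured genes, whose arrays are the same. Zap70 read -0.52, -0.36, -2.35 and -0.57 in Mutant tumours 1 to 4, against -1.84, -2.99, -0.70 and 0.55 in Control tumours 1 to 4. It differed between the groups by 0.29 (SE 0.79, limma adjusted p = 1.00), and Cd74 by 0.54 (SE 0.88, adjusted p = 1.00). Control 4 was highest and Control 2 lowest for both.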

How the data were processed

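Total RNA of 8 whole tumours was extracted with a Maxwell RSC simplyRNA kit and labelled with Cy3, per the labels' protocols, and hybridised to 1-colour Agilent mouse arrays. Per the file headers, Feature Extraction 10.7.3.1 made the deposited intensity values, linear values after background subtraction and detrending inside each array, with arrays left unscaled against each other; the submitters' processing notes name version 9.1. The flag columns the authors deposited beside them carry no unit (other). A table of intensity per probe, also deposited, lies within 0.01% of the mean processed signal for 99.463% to 99.505% of probes, with column medians of 52.8 to 61.8, so no centring between arrays and no ratio direction is involved.

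Outlier spots (66 to 117 an array) and control spots were left out, replicate spots were averaged by probe, and log2 signals were centred on each array's 75th percentile (575.9 to 740.7 before the log). A probe had to be well above background on 4 or more of the 8 arrays (36824 were), and the brightest stood for its gene. Names came from RefSeq accessions looked up, versions dropped, in a GRCm38.p6 gene table, which gave 1 gene for 32994 probes, several for 0 and none for 23611. Since the array was designed on another build, no coordinates are given. The fit used limma 3.58.1 (R 4.3.3) with Benjamini-Hochberg adjustment over 16068 genes. For a single value a two-sided exact permutation test ran over 70 arrangements, and 0.0286 is the smallest p it can give. There is no read depth on arrays, and 4 tumours a group limit the precision. The design text gives 4 hosts a group, and nothing says whether litters or days were shared. The p-values set group differences against the spread between these tumours and treat the tumours as independent.

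The 10 genes, the 5 pathway lists, the 7 marker lists and the alternatives were chosen with earlier results of these data known, so list counts are descriptions without a test. The genes named are the 10, up to 3 measured genes with the smallest p in each list, Ext1, S100a4 and the 6 genes most like the 10 by Pearson correlation over the tumours; a few genes that this rule names are not reported here. The epithelial list, Ccl19, Ccl21a and Fcer2a were chosen after their values were seen. Alternatives covered background correction (normexp with offset 50, on median spot signals, since mean signals are not used here), normalization, the filter, the choice of probe, the deposited table, array weights, a variance trend, blocks for the replicate number and slide row, and leaving out each tumour; a group-by-row term was added after the data were seen. The fit was tested on simulated data. Python 3.11.15 with pandas 2.3.3 handled the tables.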

Additional observations from a re-analysis of the deposited data

Results flagged for a closer look

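Of 26 groups of 4 tumours checked for a value standing far from the rest, 4 had one, where chance alone gives about 1 in 20 groups. Mutant 3 lay far below the other Mutant tumours for 3 genes. For Cd3d it read -1.885, with the other 3 Mutant tumours between 0.45 and 0.61. For Cd3g it read -3.6818, with the others between -1.25 and -1.06. For Lck it read -1.25, with the others between 0.36 and 0.53. These 3 values come from 1 tumour, so they are not independent of each other. In the Control group, Il2ra minus Cd3e was -1.6781 in Control 4, with the other 3 Control tumours between -3.99 and -3.61. The cause of none of these was tested.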

How the results depend on the processing

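In every setting run, limma called 0 genes at an adjusted p under 0.05, and the count at an unadjusted p under 0.05, 467 as reported, ran from 195 without Mutant 1 to 1280 with array weights; it was 305 without Control 1, 972 without Control 2, 314 without Mutant 2 and 257 without Mutant 4, and 1132 of 36824 probes taken singly. The median difference of the 10 genes was -0.26 to 0.64 with a tumour left out and 0.08 to 0.75 in the other settings, the highest with array weights. Directions changed with array weights for Foxp3 (0.19), Il2ra (0.46) and Il2ra minus Cd3e (0.19); the cause was not tested. With a tumour left out, differences ran from -0.31 to 1.06 for Cd3d, -0.22 to 0.29 for Cd3e, -0.52 to 0.93 for Cd3g, -0.0312 to 0.23 for Cd4, -0.0128 to 0.97 for Cd8b1, -0.0555 to 0.78 for Lck, -0.57 to 0.34 for Foxp3 and -0.76 to 0.52 for Il2ra. Foxp3 minus Cd3e ran from -0.45 to 0.0534, Il2ra minus Cd3e from -0.70 to 0.23 and Cd8a minus Cd4 from 0.26 to 1.73. Same-numbered tumours did not deviate together (correlations 0.0776, -0.314, 0.0517 and -0.314), so the numbers were not taken as pairs; with the replicate number as a block 0 genes were called, 371 had an unadjusted p under 0.05 and the median was 0.19. Requiring a signal above background on all 8 arrays left no value for Cd8a or Cd8a minus Cd4, and the variance trend has no counterpart for the 3 within-tumour differences. The dimmer probes were an alternative added after the data were seen, and they gave a median of 0.23. Cd8a in Control 2, Il7 in Control 1 and Control 4, and the dimmer Cd4, Cd8a, Cd247 and Lck probes lie near background, which limits their differences. The same limit holds for Clec9a, Klra8, Klre1 and Fcrla, whose probes were well above background on only part of the arrays.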
